A study of Mus musculus with 9 samples.

Results

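The subunits of the NMDA and kainate classes of glutamate receptors were followed across 3 layers of mouse piriform cortex. The members were 10 genes chosen by symbol, Grin1, Grin2a, Grin2b, Grin2d, Grin3a, Grik1, Grik2, Grik3, Grik4 and Grik5, of 33964 annotated genes in the count tables. Each gene was read through its Ensembl transcript with the highest mean count over the 9 samples. All 10 passed the filter on low counts, which asked for at least 10 counts in at least 3 samples. The libraries came from wild type C57BL/6 mice of 8 weeks per the sample labels (the study's methods give another age), and the piriform layers were cut from fresh-frozen brain sections with a laser. Layers A, B and C had 3 replicates each. Which letter stands for which numbered piriform layer is not given in the sources used here, and they do not say whether replicates or layers came from separate mice. The p-values below therefore measure the spread between these samples, which may be technical.

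Ionotropic glutamate receptors are tetramers of subunits around a cation pore and carry most fast excitation in the brain. NMDA receptors need the obligatory GluN1 subunit, bind glycine or D-serine as a co-agonist, are blocked by magnesium at rest and admit calcium. Their GluN2 subunits bind glutamate and set opening and closing times, and GluN3 subunits lower calcium entry and magnesium block. Kainate receptors act before and after the synapse. The GluK1, GluK2 and GluK3 subunits can form channels on their own, whereas GluK4 and GluK5 bind kainate tightly and need one of the former as a partner. In piriform cortex, NMDA receptors are known for their role in plasticity of the associational fibres that link pyramidal cells.

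A pore codon separates these subunits into groups, at the site that is known to govern calcium entry and magnesium block. The sequences below run 5′ to 3′ over 45 bases from the GENCODE transcripts of GRCm38 (the assembly of mm10), and the capitals mark the codon at the pore site.
Grin1: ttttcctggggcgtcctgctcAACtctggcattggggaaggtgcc
Grin2a: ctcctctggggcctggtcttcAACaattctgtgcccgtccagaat
Grin2d: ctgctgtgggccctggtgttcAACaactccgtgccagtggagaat
Grin3a: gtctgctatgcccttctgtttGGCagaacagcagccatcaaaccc
Grik1: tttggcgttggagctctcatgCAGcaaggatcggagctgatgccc
Grik2: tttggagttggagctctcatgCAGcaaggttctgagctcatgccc
Grik3: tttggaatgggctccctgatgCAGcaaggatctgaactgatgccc
Grik4: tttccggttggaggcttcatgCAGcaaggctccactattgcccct
Grik5: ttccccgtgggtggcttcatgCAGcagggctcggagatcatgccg
The stretches of Grin1 (chr2:25297292-25297409, exons 13 and 14), Grik1 (chr16:87936099-87940565), Grik2 (chr10:49240780-49244352) and Grik3 (chr4:125691186-125693978, each exons 12 and 13) cross an intron. The others shown lie in 1 coding exon, at chr16:9653540-9653584 (Grin2a, exon 9), chr7:45854372-45854416 (Grin2d, exon 8), chr4:49770563-49770607 (Grin3a, exon 3), chr9:42547602-42547646 (Grik4, exon 16) and chr7:25022476-25022520 (Grik5, exon 15), the strand being minus for all shown but Grik3. The codon was AAC, for asparagine, in Grin1, Grin2a and Grin2d and GGC, for glycine, in Grin3a. In all 5 kainate receptor subunits the reference codon was CAG, for glutamine. In mRNA of Grik1 and Grik2 this codon is known to be edited to one for arginine, which counts per transcript cannot show. No stretch of 50 bases was shared between the chosen transcripts of different members. Other transcripts of the members and genes outside the set were not compared. How reads common to several transcripts of one gene were counted is not stated, however, and for Grin1 8 transcripts had a mean count within 10% of the highest. Each gene's values are therefore those counted on its chosen transcript, and are not read as the level of that isoform.

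Total counts ranged from 23104306 to 76471683 per sample, and mitochondrial ribosomal RNA took 55.3 to 70.2%, 12.8 to 28.1% and 20.5 to 57.1% of them in layers A, B and C. The counts of the chosen transcripts ran from 10 (Grik4, layer A replicate 2) to 10220 (Grin2b, layer C replicate 3). Levels are given as CPM, counts brought to a common library size with TMM factors that correct for library composition. Layer B replicate 3 stood apart, with a correlation of log2 CPM of 0.888 and 0.88 with the other replicates of layer B, which correlated at 0.978 with each other. In that library the 10 markers of GABAergic neurons summed to 306 CPM, against 63.2 and 59.1 CPM in replicates 1 and 2. All 10 neuronal and 8 glutamatergic markers of the tissue were detected, and none was at 0 over a layer.

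Grin1, Grin2a and Grin2b were lower in layer A than B, Grin1 and Grin2b were lower in layer A than C as well, and these 3 genes did not pass for B against C. Grin1, which encodes the obligatory GluN1 subunit, was read on ENSMUST00000028335 (chr2:25291181-25319120, minus strand, 20 exons, GRCm38). Its level was 10.9, 21.9 and 29.7 CPM in replicates 1, 2 and 3 of layer A, 81.3, 91.6 and 49.96 CPM in layer B and 83.6, 56.5 and 64.9 CPM in layer C. Every sample of layer A lay below every sample of layers B and C, and those of layers B and C overlapped. The log2 fold change of layer A over layer B was -1.83 (SE 0.372), a level 3.55-fold lower, with an adjusted p of 0.0038 (quasi-likelihood test of edgeR, adjusted by Benjamini-Hochberg over 56416 transcripts, as for every edgeR p below). Layer A over layer C gave -1.71 (SE 0.371, edgeR adjusted p = 0.00985), which did not pass without layer C replicate 1 (-1.54, edgeR adjusted p = 0.0611), and layer B over layer C gave 0.12, with a 95% interval from -0.64 to 0.88. Of its 14 transcripts tested, 12 passed in the first of these pairs and 13 in the second. The libraries did not keep strand, and 1307 bases (30.8%) of this transcript overlap the exons of Grin1os on the opposite strand, so that reads from the pair cannot be told apart there.

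Grin2b encodes GluN2B, the subunit that gives receptors slow closing and binds CaMKII, and was read on ENSMUST00000111905 (chr6:135729826-136173511, minus strand, 15 exons). It stood at 12.5, 33.5 and 35.6 CPM in layer A, at 130, 135 and 63.2 CPM in layer B and at 103, 102 and 87.1 CPM in layer C. No sample of layer A reached the lowest of the other layers. The log2 fold change of A over B was -2.001 (SE 0.396, edgeR adjusted p = 0.00319), that of A over C -1.83 (SE 0.394, edgeR adjusted p = 0.0094) and that of B over C 0.17 (95% interval -0.64 to 0.98). All 5 of its tested transcripts passed for A over B, and 3 did for A over C. Without layer C replicate 1, A over C just missed the threshold (-1.80, edgeR adjusted p = 0.0506). Short exons of Gm14329, Gm22892 and Gm26653 on the opposite strand cover 143, 86 and 43 of its 7484 bases.

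Grin2a encodes GluN2A, which closes faster and rises in cortex after birth, and was read on ENSMUST00000115835 (chr16:9577741-9994582, minus strand). It was found at 2.20, 8.22 and 8.55 CPM in layer A, where replicate 1 held 26 reads. The values were 19.8, 23.5 and 9.01 CPM in layer B and 16.9, 18.9 and 13.3 CPM in layer C. Layer A was lower in every sample, although layer B replicate 3 lay just above its highest value. The log2 fold change of layer A over layer B was -1.45 (SE 0.463, edgeR adjusted p = 0.0438). This call was close to the threshold. It was lost when any single library other than layer B replicate 3 was left out (log2 fold changes -1.71 to -1.05, edgeR adjusted p from 0.0538 to 0.148) and in 5 of 10 other settings. Without layer B replicate 3 it was -1.70 (edgeR adjusted p = 0.00888). Layer A over layer C gave -1.35 (SE 0.463, edgeR adjusted p = 0.0742), and without layer B replicate 3 it passed (-1.34, edgeR adjusted p = 0.0244). The 10 neuronal markers summed to 1442 to 1836 CPM in layer A. In layers B and C they summed to 2644 to 6819 and 3116 to 4223 CPM. They were thus lowest in layer A, as were Grin1, Grin2a and Grin2b. Within layer B, replicate 3 had the highest marker sum (6819 CPM) and the lowest levels of all 3 genes. The part of the markers in these differences was not tested.

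**Figure D1:**
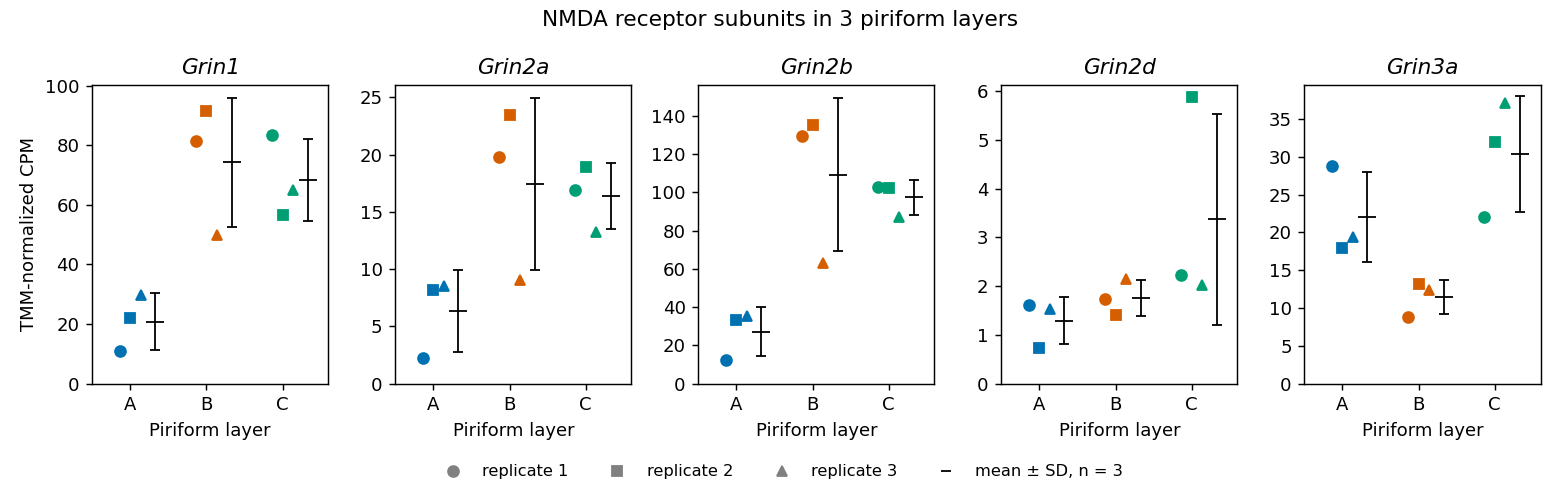
TMM-normalized CPM (linear axis from 0) of the 5 NMDA receptor subunit genes by piriform layer. Circles, squares and triangles are replicates 1, 2 and 3, and bars show the mean ± SD (n = 3). For Grin1, Grin2a and Grin2b every layer A sample lies below all others, whereas Grin3a is lowest in layer B.

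Grin3a had another order of layers. It encodes GluN3A, a subunit common in young neurons that gives receptors with little magnesium block, and was read on ENSMUST00000093859 (chr4:49661611-49845549, minus strand). Its level was 28.8, 17.9 and 19.4 CPM in layer A, 8.85, 13.1 and 12.4 CPM in layer B and 22.0, 31.9 and 37.1 CPM in layer C. Layer B was the lowest, with no overlap with either other layer, and layers A and C overlapped. An F test for differences among A, B and C together passed (edgeR adjusted p = 0.0211). Of the pairs, layer B over layer C gave a log2 fold change of -1.41 (SE 0.323, 95% interval -2.09 to -0.72), with an edgeR adjusted p of 0.541 among all transcripts and a DESeq2 adjusted p of 0.0332. Layer A over layer B gave 0.94 (SE 0.321, edgeR adjusted p = 0.0578) and passed in 6 of 10 other settings and without layer B replicate 3 (1.05, edgeR adjusted p = 0.039). Markers of GABAergic neurons, a class in which Grin3a is known to be expressed, summed to 202 to 357 CPM in layer A, 59.1 to 306 CPM in layer B and 188 to 318 CPM in layer C, none of the 10 being at 0 over a layer. In layer B replicate 3, where they reached 306 CPM, Grin3a stood at 12.4 CPM, between the other replicates. Their part in the difference was not tested.

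Grin2d, which encodes GluN2D, a subunit with very slow closing that is found in interneurons, was low. It was read on ENSMUST00000002848 (chr7:45831883-45867129, minus strand), with 11 to 237 reads per sample. The level was 1.61, 0.735 and 1.52 CPM in layer A, 1.73, 1.41 and 2.14 CPM in layer B and 2.23, 5.87 and 2.02 CPM in layer C. Layer C replicate 2 was the one high sample, and the other 8 lay between 0.735 and 2.23 CPM. No pair passed, the largest log2 fold change being -1.35 for layer A over layer C (95% interval -2.44 to -0.26, edgeR adjusted p = 0.107), and -0.71 (edgeR adjusted p = 0.429) without that sample. Layer A over layer C passed without layer B replicate 3 and layer C replicate 3 together (-1.598, edgeR adjusted p = 0.0364), a setting chosen after seeing the data. Exons of Gm45441 on the opposite strand overlap 7.75% of the transcript.

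Among the kainate receptor subunits, Grik3 and Grik1 changed with layer in opposite directions, and Grik2, Grik4 and Grik5 passed no pairwise test. Grik3 encodes GluK3, which forms channels of low glutamate affinity and is also found before the synapse. It was read on ENSMUST00000030676 (chr4:125490700-125714173, plus strand, 16 exons), the only transcript annotated for it. The level was 3.05, 3.74 and 3.74 CPM in layer A, 2.52, 3.23 and 4.04 CPM in layer B and 13.6, 16.3 and 38.9 CPM in layer C. All samples of layer C lay above all those of layers A and B, which overlapped, and layer C replicate 3, the deepest library, was the highest. The log2 fold change of layer A over layer C was -2.71 (SE 0.425, edgeR adjusted p = 0.00244) and layer A over layer B gave 0.11 (95% interval -0.76 to 0.98). Without layer C replicate 3, A over C was -2.06 and still passed (edgeR adjusted p = 0.00886).

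Between layers B and C, where no transcript passed, Grik3 had the log2 fold change -2.82 (SE 0.422, 95% interval -3.71 to -1.92), an unadjusted p of 6.64e-06 and an adjusted p of 0.0698, the smallest reached by any transcript in this edgeR comparison and shared with other genes. By rank of its p it was number 5 of the 56416 tested. It passed with DESeq2 (adjusted p = 6.9e-07), without a filter on low counts (edgeR adjusted p = 0.00489), with 1 transcript per gene (edgeR adjusted p = 0.0175) and without layer B replicate 3 (log2 fold change -3.05, edgeR adjusted p = 0.0365). It did not pass without layer C replicate 3, where the log2 fold change was -2.23 (edgeR adjusted p = 0.514), nor with only the 6 samples compared (edgeR adjusted p = 0.694). Over all settings the log2 fold change stayed between -3.13 and -2.23.

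Grik1 encodes GluK1, which in cortex is known mainly from interneurons, and was read on ENSMUST00000072256 (chr16:87895902-88290258, minus strand, 17 exons). It was measured at 9.57, 6.21 and 7.13 CPM in layer A, 4.54, 5.17 and 3.73 CPM in layer B and 1.62, 2.42 and 2.87 CPM in layer C. The layers ran in the order A, B, C without overlap between any of them. The log2 fold change of layer A over layer C was 1.72 (SE 0.375, edgeR adjusted p = 0.00996), with all 3 tested transcripts passing, and without layer C replicate 1 it was 1.51 (edgeR adjusted p = 0.0777). Layer A over layer B gave 0.77 (SE 0.364, edgeR adjusted p = 0.176) and layer B over layer C 0.95 (SE 0.367, unadjusted p = 0.0199, edgeR adjusted p = 1.00). The summed GABAergic markers given above overlapped between layers A and C. In layer A the sum had a mean of 253.5 CPM, of which Gad2 held a mean of 175.1 CPM. Of those 10 markers, Gad2 was higher in A than B, and Lhx6 and Sst were lower in A than C, genes named after their values were seen. The part of GABAergic neurons in the Grik1 differences was not tested.

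**Figure D2:**
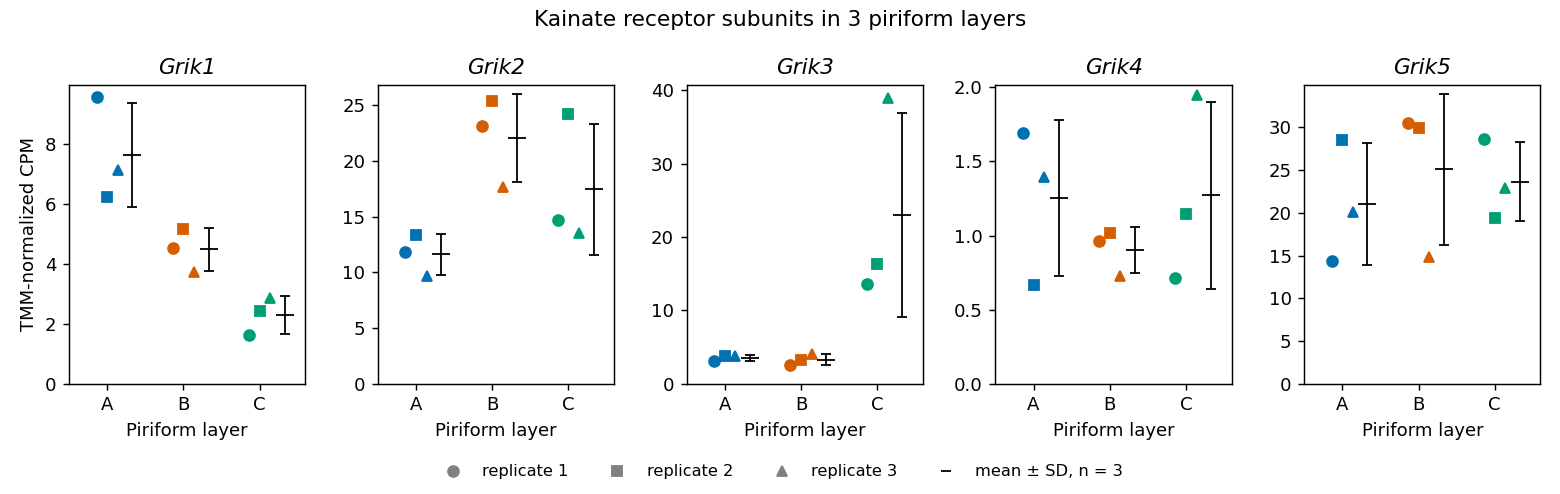
TMM-normalized CPM (linear axis from 0) of the 5 kainate receptor subunit genes by piriform layer, with symbols and bars as for the NMDA subunits (mean ± SD, n = 3). Grik1 steps down from layer A to layer C without overlap, and Grik3 lies between 13.6 and 38.9 CPM in layer C and at 4.04 CPM or below elsewhere.

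Grik2 encodes GluK2, the main channel-forming subunit of principal neurons, and was read on ENSMUST00000105484 (chr10:49099843-49783259, minus strand). It was at 11.9, 13.4 and 9.70 CPM in layer A, 23.1, 25.4 and 17.7 CPM in layer B and 14.6, 24.2 and 13.5 CPM in layer C. Layer A was the lowest in all samples, by a narrow margin against layer C. Layer A over layer B gave a log2 fold change of -0.92 (SE 0.322, edgeR adjusted p = 0.0626), which passed without layer B replicate 3 (-1.01, edgeR adjusted p = 0.0347), without layer C replicate 2 (-0.92, edgeR adjusted p = 0.0478) and with DESeq2 (adjusted p = 0.0477).

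Grik5, for the high-affinity subunit GluK5 (ENSMUST00000003468, chr7:25009849-25072292, minus strand), showed no order of layers, with 14.4, 28.5 and 20.1 CPM in layer A, 30.5, 29.9 and 14.9 CPM in layer B and 28.7, 19.4 and 22.9 CPM in layer C. The layers overlapped in every pair, and the log2 fold change of layer A over layer B was -0.26 with a 95% interval from -1.001 to 0.49. Grik4, for GluK4 (ENSMUST00000114865, chr9:42518135-42944493, minus strand), was the lowest of the kainate receptor genes, between 0.668 and 1.95 CPM. Its 10 to 229 reads per sample left wide intervals, from -0.66 to 1.596 for the log2 fold change of layer A over layer B and from -1.16 to 1.08 for layer A over layer C. Gm24420 on the same strand shares 59 bases with it.

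As a set, 3 of the 10 members passed for A against B, where 16.5% of all tested transcripts did, and all 3 were lower in A, where 5.83% of all transcripts were called (10.7% were called higher). For A against C 4 members passed against 11.3% of all transcripts, with 3 lower in A (4.35% of all) and 1 higher (6.98% of all). At an unadjusted p under 0.05 there were 5 and 6 members in these pairs, and 29% and 24.5% of all transcripts. For B against C 0 members and 0% of transcripts passed in the edgeR test, with 0% in each direction. At an unadjusted p under 0.05 there were 3 members (Grik3, Grin3a and Grik1) and 4.11% of all transcripts, and DESeq2 called Grik3 and Grin3a. The F test for any difference called 5 members (Grin1, Grin2b, Grin3a, Grik1 and Grik3) and 14.3% of all transcripts. Each member stood for 1 transcript of its gene, while these shares were over all 56416 tested transcripts. With 1 transcript per gene, 5005 of 22262 were called for A against B and 3748 of 22262 for A against C. These are larger shares than those over all transcripts.

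Counted by samples without overlap, 2 members were higher and 4 lower in A than B, against 17.2% and 15.1% of all transcripts. In A against C 1 was higher and 6 were lower, against 17% and 14.5%, and in B against C 1 was higher and 2 were lower, against 3.92% and 4.67%. The median log2 fold change of the members was -0.35, -0.97 and 0.09 for A over B, A over C and B over C, beside -0.12, -0.0067 and 0.07 over all tested transcripts. Without layer C replicate 1, Grik3 was the 1 member that passed for A against C. In each other setting that left out 1 library the 4 calls of this pair held. The 2 comparisons with A share its samples.

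**Figure D3:**
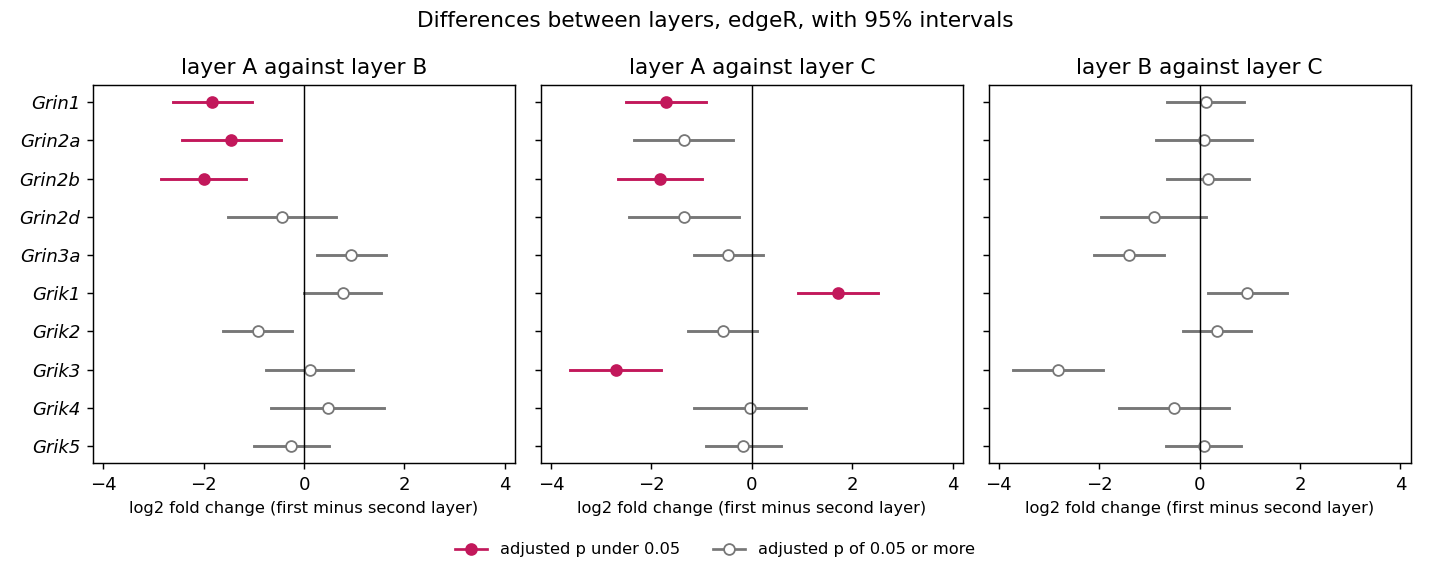
log2 fold change (x axis, first layer minus second) of each member in the 3 pairs of layers, with 95% intervals from the edgeR fit. Filled points have an adjusted p under 0.05, namely Grin1, Grin2a and Grin2b in A against B and Grin1, Grin2b, Grik1 and Grik3 in A against C. No point is filled in B against C, where Grik3 lies farthest from 0 at -2.82.

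Levels of different genes were compared per kb of transcript. Per kb, the 5 NMDA receptor genes summed to 13.0 ± 3.83, 37.5 ± 11.8 and 37.1 ± 2.74 CPM per kb (SD, n = 3) in A, B and C, and the single sums of layer A (8.83 to 16.4) did not reach those of layers B and C (24.1 to 46.3). The kainate receptor genes summed to 11.2 ± 1.71, 13.9 ± 3.45 and 14.1 ± 0.80 CPM per kb (SD, n = 3). In layers B and C Grin1 took 47.1% ± 1.68 and 43.3% ± 6.13 (SD, n = 3) of the NMDA receptor sum, followed by Grin2b with 38.4% ± 3.16 and 35.1% ± 2.43. In layer A their shares were 36.5% ± 6.90 and 26.8% ± 7.02, and Grin3a took 25.6% ± 15.6, against 4.49% ± 2.12 and 11.1% ± 3.50 in B and C. The single shares of Grin3a in layer A were 43.5, 17.3 and 15.8%, and without replicate 1 their mean was 16.6%. The share of Grin2a was 9.07%, 8.98% and 8.79% in layers A, B and C, within 1 SD of each other. Its single shares in layer A were 4.96, 11.8 and 10.4%, with a mean of 11.1% without replicate 1.

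Among the kainate receptor genes Grik5 had the largest mean share in each layer, 49.1% ± 9.98, 46.9% ± 6.47 and 45.0% ± 10.6 (SD, n = 3). The mean share of Grik1 was 19.3% ± 6.59, 8.97% ± 1.15 and 4.45% ± 1.01 in A, B and C. For Grik3 it was 3.52% ± 0.44, 2.84% ± 1.46 and 17.8% ± 9.76.

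**Figure D4:**
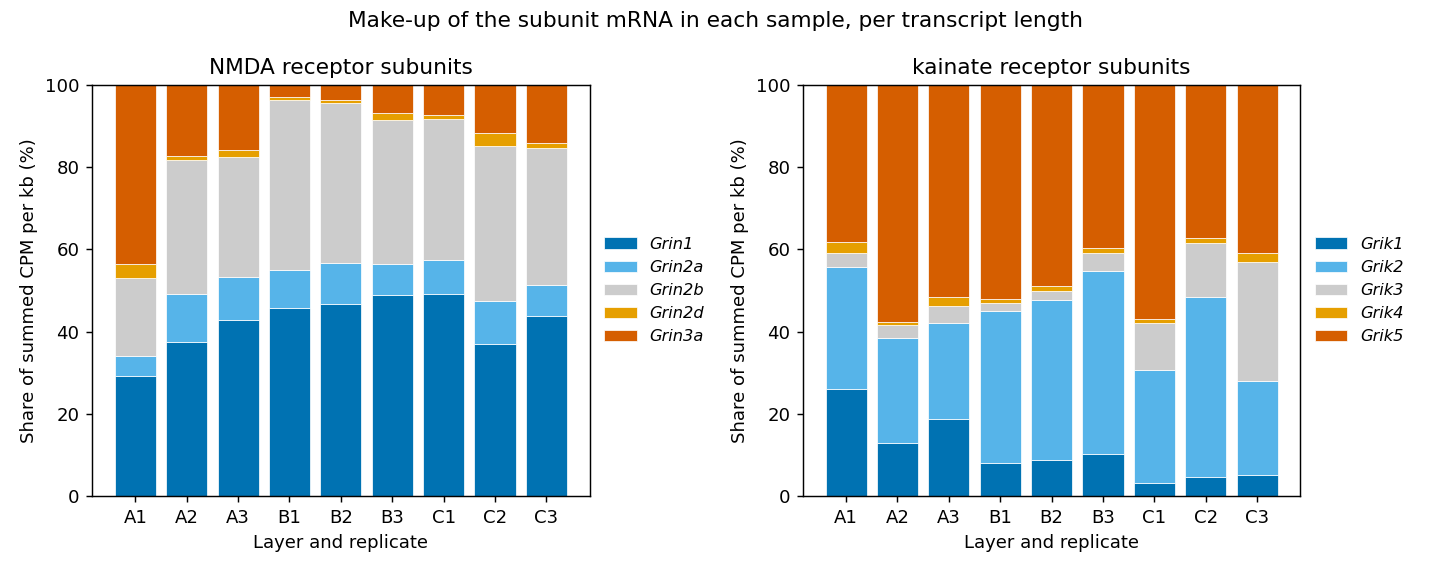
Share (%) of each gene in the summed CPM per kb of the 5 NMDA receptor genes (left) and the 5 kainate receptor genes (right), 1 bar per sample. Grin3a takes more of the NMDA bars of layer A (mean 25.6%, or 16.6% without replicate 1, which stands at 43.5%) than of layer B (4.49%), Grik1 more of the kainate bars of layer A, and Grik3 more of those of layer C.

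Ratios within a sample, which need no scaling between libraries, were compared for 6 pairs of subunits. With 3 samples against 3 the two-sided exact permutation test cannot go below p = 0.1, so that none can pass, and the smallest adjusted p over the 18 tests was 0.2. Grin3a over Grin1 had log2 ratios per kb of 0.57, -1.11 and -1.44 in A, -4.02, -3.62 and -2.83 in B and -2.75, -1.65 and -1.63 in C. The layers did not overlap in any pair, and layer A exceeded layer B by 2.83 and layer C by 1.35 (exact permutation p = 0.1 each). In layer A replicate 1 Grin3a was above Grin1, the only sample where this ratio was positive. Grik1 over Grik2 was -0.18, -0.97 and -0.32 in A, at most -2.12 in B and at most -2.11 in C, again without overlap of layer A with the others (exact permutation p = 0.1 each).

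Grik3 over Grik2 was -3.11, -2.996 and -2.54 in A, -4.36, -4.14 and -3.30 in B and -1.28, -1.73 and 0.36 in C. Layer C was above both others and layer B below both, the difference of layers B and C being -3.05 (exact permutation p = 0.1). Grin2a over Grin2b moved far less, with means of -1.61 ± 0.26, -2.11 ± 0.14 and -2.01 ± 0.14 (SD, n = 3), and was higher in A than B by 0.49 (exact permutation p = 0.1). The ratios of Grin2d to Grin2b and of Grik4 plus Grik5 to Grik1 plus Grik2 plus Grik3 overlapped in every pair of layers.

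**Figure D5:**
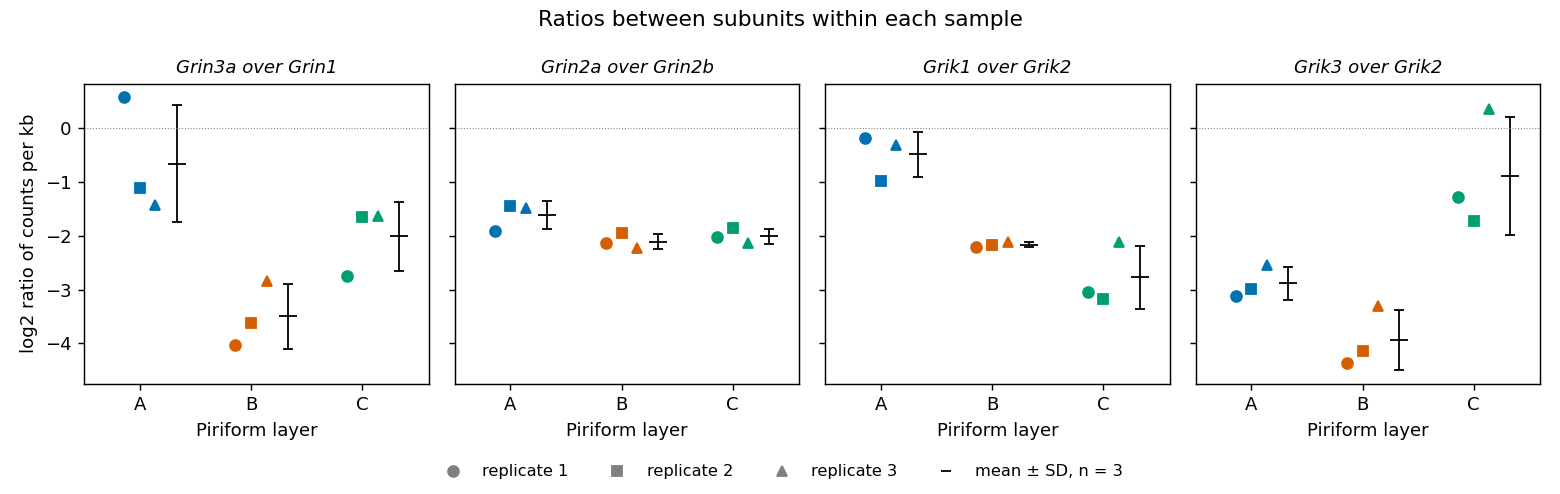
log2 ratios of counts per kb for 4 pairs of subunits by piriform layer, each point 1 sample and bars the mean ± SD (n = 3); the dotted line marks equal levels. Grin3a over Grin1 runs in the order A, C, B and Grik3 over Grik2 in the order C, A, B without overlap. The layer means of Grin2a over Grin2b differ by 0.49 at most.

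The layers also differed in markers of cell types. In bulk samples fewer cells of a type and less RNA per cell cannot be told apart. Of 10 neuronal markers, 8 were lower and 1 (Celf4, named after its values were seen) was higher in A than B, and 7 were lower in A than C, with median log2 fold changes of -1.49 and -1.35. All 10 astrocyte markers were higher in A than in both other layers, with sums of 4608 to 10070 CPM against 650 to 1068 and 1164 to 1560 CPM. All 8 markers of meninges were higher in layer A as well. Of 8 markers of endothelium and pericytes, 8 and 7 were higher than in layers B and C.

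Each member was therefore also expressed against the mean log2 count of the 10 neuronal markers in the same sample. On this scale Grin1 differed by -0.70 and -0.69 between layer A and layers B and C, and Grin2b by -0.87 and -0.86. For both genes the samples of A and B overlapped on this scale (exact permutation p = 0.4 and 0.3), and those of A and C did not (exact permutation p = 0.1 each). The overlap of A and B came from layer B replicate 3, at -2.16 for Grin1 and -1.82 for Grin2b. Without that library A was below B by log2 differences of -1.26 and -1.52, with no overlap. Without layer A replicate 1 the differences from B and C were -0.36 and -0.35 for Grin1 and -0.44 for each pair for Grin2b. Grin2a differed by -0.37 for A over B (exact permutation p = 0.5) and by -0.47 for A over C (exact permutation p = 0.7), and its samples overlapped in every pair. The sign of these differences turned without layer A replicate 1 (0.20 and 0.11). It also turned for A over B without layer B replicate 2 (0.087). Grin3a differed by 2.13 for A over B and by -1.48 for B over C, each without overlap. Grik1 differed by 1.96 for A over B and by 2.86 for A over C. Grik3 differed by -1.43 for A over C and by -2.76 for B over C, again without overlap (exact permutation p = 0.1 each, adjusted over 30 tests 0.231, the smallest reached). It also differed by 1.33 for A over B on this scale, where its CPM overlapped and gave a log2 fold change of 0.11. The other pairs without overlap were Grin2d at 0.72 for A over B and -0.86 for B over C (-0.32 without layer C replicate 2), Grik4 at 1.603 for A over B and Grik5 at 0.91 for A over C (exact permutation p = 0.1 each). The markers were themselves lower in A (medians -1.49 and -1.35), which raises any gene of unchanged CPM in A on this scale. In CPM, A over B gave -0.44 for Grin2d and 0.47 for Grik4, and A over C gave -0.17 for Grik5. The share of all transcripts without overlap on this scale was not computed. Grik2 overlapped in every pair. The part of cell composition in these differences was not tested.

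Proteins that work with NMDA receptors are scaffolds of the postsynaptic density, kinases and motors. Of 25 such genes, 3 were higher in A than B (10.7% of all transcripts) and 6 lower (5.83% of all). Their median log2 fold change was -0.54. The higher ones were Camk2a (2976 against 812 CPM, 1.87, edgeR adjusted p = 0.0016), the kinase that binds GluN2B, the scaffold gene Dlg2 (1.49) and the adaptor gene Apba1 (1.18). Among the lower ones Dlg3, another scaffold gene, gave -1.67, Lin7b -2.48 and Camk2b -1.57. Camk2a thus ran against Grin2b. It was higher in A than C too (1.41, edgeR adjusted p = 0.0135), where 6 of the 25 were lower (4.35% of all transcripts). The mRNA of Camk2a is known to be carried into dendrites. Of 10 tested genes for supply and removal of the co-agonists, 4 were higher in A than B (10.7% of all transcripts) and 0 lower (5.83% of all). Gldc, of the glycine cleavage system, gave 3.45 (17.4 against 1.58 CPM, edgeR adjusted p = 0.000177), Psat1, of serine synthesis, gave 2.34, and Phgdh, with under 1 CPM on its chosen transcript, gave 3.78. Gldc and Psat1 were higher than in layer C as well (2.88 and 1.69), the 2 of the 10 called higher there (6.98% of all transcripts). These genes moved in the direction of the astrocyte markers.

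For kainate receptors, 3 of 11 tested partners were lower in A than B (5.83% of all transcripts) and 4 were lower in A than C (4.35% of all). The auxiliary subunit genes Neto1 and Neto2, whose proteins slow kainate receptor channels, were both among them. Neto1 had means of 16.7, 41.4 and 53.8 CPM in layers A, B and C, with log2 fold changes of -1.32 for A over B and -1.69 for A over C (edgeR adjusted p = 0.0106 and 0.00536). Neto2 gave -1.26 and -1.87 (edgeR adjusted p = 0.0431 and 0.0101). C1ql3, which encodes a secreted ligand at synapses, had means of 6.09 CPM in layer A and 37.2 CPM in layer C, a log2 fold change of -2.58 (edgeR adjusted p = 0.00997). None of the partners on the 3 lists passed between layers B and C in the edgeR test.

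Among related receptor genes outside the set, Grin2c was higher in layer A. It encodes GluN2C, which is known from cerebellar granule cells and astrocytes. Its mean was 14.9 ± 2.597, 2.59 ± 1.90 and 3.46 ± 0.90 CPM (SD, n = 3) in layers A, B and C, with log2 fold changes of 2.52 (edgeR adjusted p = 0.00222) and 2.10 (edgeR adjusted p = 0.0106). It thus moved opposite to Grin2a and Grin2b. Grid1 (-0.05 and -0.15) and Grin3b, at 0.26 CPM or less in each layer's mean, passed no test.

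The genes most like a member over the 9 samples, by Pearson's r of log2 CPM among 6796 genes with a mean of at least 5 CPM, were Cacnb1 (0.994), Lingo1 (0.994) and Grin1os (0.992) for Grin1. Grin1os shares exon bases with Grin1 in these strand-free counts. For Grin2a they were Tmem132d (0.984), Grin2b (0.972) and Cntnap5a (0.966). For Grik1 the nearest was Reln (0.966), the gene of the secreted protein reelin, before Setdb1 (0.954) and Wsb1 (0.945). These points share their libraries and the 3 layers, and the correlations are given as a description only.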

How the data were processed

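RNA of 9 laser-captured samples (3 layers, 3 replicates) was amplified (Ovation), made into libraries that do not keep strand and aligned to mm10 with Bowtie by the authors, per the study's methods. The submitters' processing notes also list bcl2fastq 1.8.4 and HTSeq 0.5.3. The authors deposited raw counts per Ensembl transcript, without normalization; the Ensembl release and the treatment of shared reads are not given in the sources used here. Reads carry no molecular identifiers, so that amplification can add to the spread. Of 95533 identifiers, 82807 (86.7%) matched GENCODE vM21 (GRCm38) and took gene symbols from it. Samples were grouped by the letters in the labels.

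The 56416 transcripts that reached 10 counts in 3 or more samples were scaled by TMM and tested with edgeR 4.0.16 (R 4.3.3), quasi-likelihood, all 9 samples in 1 fit, Benjamini-Hochberg adjustment, threshold 0.05. DESeq2 1.42.0 was an alternative. Standard errors are the log2 fold change over the square root of F. Ratios and levels against neuronal markers (pseudocount 0.5 counts) had two-sided exact permutation tests (SciPy 1.17.1). Genes most like a member were found on log2(CPM + 0.1). The fits were tested on simulated counts. Members, lists and the rule for named genes (all members, and per list and direction at most the 3 of smallest p) were chosen with earlier results of these data known. Other scalings, filters, gene sums, a replicate block and leaving out libraries were tried. The pore stretch of 1 member and 1 related receptor gene are not reported here.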

Additional observations from a re-analysis of the deposited data

How the results depend on the processing

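Counts of members passing were the values most open to the settings. For A against B 3 members passed, and 5 did with DESeq2, with 1 transcript per gene, without layer B replicate 3 and without layer B replicate 3 and layer C replicate 3 (the last chosen after seeing the data). For A against C 4 passed, and 1 without layer C replicate 1. For B against C 0 passed with edgeR, 2 with DESeq2, and 1 with no filter, with 1 transcript per gene, without layer B replicate 3 and without layer B replicate 3 and layer C replicate 3. Leaving out 1 library, or layer B replicate 3 and layer C replicate 3 together, gave 2 to 5, 1 to 6 and 0 to 1 members in these pairs and 4 to 7 for any difference, the 6 and the 7 only with both left out (with 1 left out the highest counts were 5 and 6). The cause was not tested, except that fewer transcripts were tested with 1 per gene. Over all 56416 transcripts, A against B, A against C and B against C gave 9329, 6389 and 0 calls. With DESeq2 they gave 11679, 8883 and 130. With at least 10 counts in all samples they gave 6928, 5133 and 0 of 33423. With 1 transcript per gene they gave 5005, 3748 and 5 of 22262. Counts summed by gene gave 4914, 3637 and 0 of 22794, and no filter gave 10795, 7198 and 10 of 79414. Leaving out layer C replicate 1 gave 1369 calls for A against C, and layer A replicate 1 gave 2727.

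With the replicate number as a block, 2 members (Grin1 and Grin2b) passed for A against B, 4 for A against C, 0 for B against C and 5 for any difference, and Grin2a had the edgeR adjusted p of 0.0526. The block gave 9184, 6384 and 0 calls over all transcripts. Correlations of deviations from the layer mean ran from -0.186 to 0.243 between samples of the same number. Between samples of different number they ran from -0.369 to 0.394. With 3 samples per layer these values cannot show whether the numbers pair the samples.

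The direction of a log2 fold change turned only for differences that passed no test, each when libraries were left out. Over those settings Grik3 for A over B ran from -0.0088 (without layer B replicate 1) to 0.36. For A over C, Grik4 ran from -0.34 to 0.48 (0.26 without layer A replicate 2, 0.47 without layer C replicate 3, 0.48 without layer B replicate 3 and layer C replicate 3) and Grik5 from -0.45 to 0.040. For B over C, Grin1 ran from -0.080 to 0.29, Grin2a from -0.21 to 0.36, Grin2b from -0.037 to 0.40, Grik4 from -0.85 to 0.091 and Grik5 from -0.12 to 0.31. Against glutamatergic in place of neuronal markers, Grik3 differed by 1.64 for A over B. Those markers were lower in A than B as well (median log2 fold change -1.28), which raises A on that scale too. The low counts of Grin2d and Grik4 and 3 samples per layer limit what could be detected.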
